A study of Mus musculus with 8 samples.

Results

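The genes described here are 35 genes of glycolysis, lactate export and the hypoxia response, among the 48321 gene symbols counted in NK cells. They were chosen by name, with earlier results of these data known. In glycolysis they cover hexose phosphorylation and phosphofructokinase (6 genes), the enzymes that set fructose-2,6-bisphosphate (2) and the aldolase and triose steps to pyruvate (8). The others belong to lactate formation and export (4), pyruvate dehydrogenase with its kinases (4), HIF-1 and its oxygen-dependent turnover (4) and other HIF-1 targets (7). All 35 symbols were found in the files, 31 passed the filter on low counts and were tested, and 4 did not (*Pfkfb4*, *Ldhb*, *Egln3* and *Vegfa*).

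NK cells were sorted as CD45+ TCRb- NK1.1+ cells from lung and spleen of C57/Bl6 mice, either wild type (WT) or homozygous for a germline deletion of the proximal enhancer of *Ccl5* (*Ccl5* ΔPE/ΔPE, labelled KO), and used for RNA-seq directly after the sort. The question put to these libraries was how the loss of homeostatic CCL5, an inflammatory chemokine that resting NK cells make, changes gene expression in NK cells of each organ. The 4 groups (lung WT, lung KO, spleen WT, spleen KO) held 2 libraries each, and no treatment was given. The deletion was made by genome editing and is present in every cell of the mouse, so that a difference between WT and KO NK cells need not arise within the NK cells. It is not stated if the paired libraries of each group are from different mice, so p-values measure only the spread between these libraries, which may be technical. The study's methods describe its mice in general as a few months old and of both sexes, and do not give the age or sex behind each library.

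Glycolysis splits glucose into pyruvate and yields ATP without oxygen; pyruvate is then either reduced to lactate and exported or oxidised through pyruvate dehydrogenase. HIF-1α, the oxygen-regulated subunit of HIF-1, is hydroxylated by prolyl hydroxylases and degraded through VHL when oxygen is present, and when it is stable it activates many glycolytic genes and others such as *Bnip3*. In NK cells, glycolysis is low at rest and rises with cytokine stimulation, where it feeds proliferation and effector function.

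Between 3132963 and 26482366 reads per library were assigned to genes, and the spleen KO group held both the shallowest and the deepest library. A count of 3 reads, taken as the limit that a count of 0 allows, was worth 0.115 to 0.979 CPM (reads per 1000000 of the TMM-scaled library total). *Ccl5* fell in KO from 19518 and 18350 CPM to 2992 and 3195 CPM in lung, and from 16679 and 15664 CPM to 2676 and 2432 CPM in spleen, as the labels require. All 8 NK cell markers were detected in every group. Their summed level was 50400 to 51956 CPM in lung WT and 39668 to 40026 CPM in lung KO. In spleen it was 36363 to 36940 CPM in WT and 47629 to 49929 CPM in KO. *Gzma* went from 25399 and 24265 to 17961 and 18039 CPM in lung and from 15694 and 15278 to 22854 and 21128 CPM in spleen. *Prf1* went the other way, from 1463 and 1556 to 2477 and 2554 CPM in lung and from 1303 and 1320 to 939 and 938 CPM in spleen. Of the 8 markers of lung epithelial, endothelial and stromal cells, 7 were detected in lung WT and 8 in lung KO. Their summed level was 307 to 313 CPM in lung WT, 402 to 438 CPM in lung KO and 65.7 to 75.7 CPM in spleen. In lung the markers did not move together. *Sftpc* went from 152 and 156 CPM in WT to 251 and 282 CPM in KO, and *Pecam1* from 60.7 and 57.5 to 80.2 and 78.2 CPM. *Scgb1a1* went from 87.3 and 83.4 to 60.4 and 63.9 CPM, and *Cdh5* from 9.45 and 8.55 to 4.71 and 7.75 CPM. The spleen sum was mostly *Pecam1*, at 64.9 to 74.9 CPM. In spleen *Sftpc*, *Sftpb* and *Scgb1a1* were at 0 in every library. Of 7 platelet and erythroid markers, 5 were detected in lung WT and 7 in lung KO, summing to 43.8 to 52.3 CPM in lung and 1.75 to 2.99 CPM in spleen. This sum hides opposite moves in lung. *Ppbp* went from 21.1 and 20.2 CPM in WT to 4.71 and 6.12 CPM in KO, and *Pf4* from 8.58 and 8.29 to 1.23 and 0.544 CPM. *Hbb-bs* went from 13.2 and 16.6 to 28.7 and 31.7 CPM, and *Hba-a1* from 5.59 and 6.99 to 8.19 and 11.7 CPM. T-cell markers summed to 124 to 167 CPM in lung and 273 to 294 CPM in spleen, with *Cd4*, *Cd8a* and *Cd8b1* at or near 0. In spleen *Cd3e* went from 32.0 and 32.5 CPM in WT to 7.51 and 11.1 CPM in KO. *Trac* went the other way there, from 19.0 and 21.3 CPM to 30.0 and 27.5 CPM. B-cell markers summed to 248 to 308 CPM in lung and 516 to 632 CPM in spleen. Myeloid markers summed to 20.2 to 41.6 CPM, with *Adgre1*, *S100a8* and *S100a9* at 0 in every library. The part of these cells in the differences between groups, in lung or spleen, was not tested. In RNA of a whole sort, fewer cells of a type and less RNA per cell cannot be told apart.

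In lung NK cells, most of the glycolytic enzymes that could be called were higher in KO, and in spleen NK cells most were lower. Of the 15 enzyme genes from hexokinase to lactate dehydrogenase A, 9 rose, 0 fell and 6 did not pass the test in lung, whereas 2 rose (*Aldoc* and *Pgk1*), 11 fell and 2 did not pass in spleen. Over all 31 tested genes, 24 were called in lung at an FDR of 0.05 (16 higher, 8 lower in KO) and 25 in spleen (9 higher, 16 lower). The test was the quasi-likelihood test of edgeR, and p-values were adjusted over 12595 genes by Benjamini and Hochberg's method. These counts stand against a background in which 55.6% of all genes tested were called in lung (29.2% higher, 26.4% lower) and 57.1% in spleen (28.2% higher, 28.9% lower). The median log2 fold change was 0.26 over the 31 genes against 0.02 over all genes in lung, and -0.12 over the 31 genes in spleen. Most of the genes listed as other HIF-1 targets went the other way from the enzymes, with 5 of 6 tested falling in lung. Of these 6, 3 fell by DESeq2, 3 with each library's trend with GC content removed and 3 without lung WT replicate 1. In the GC-corrected fit, 6 of the 15 enzyme genes rose and 0 fell in lung, and 3 rose and 7 fell in spleen. Of all 12595 genes, that fit called 53.7% in lung (3728 genes higher) and 55.9% in spleen (3312 genes higher). DESeq2 called 35.8% of all genes in lung. Without the deepest library, spleen KO replicate 2, the median log2 fold change of the 15 genes in spleen was -0.26, against -0.23 in the main fit. Fewer of them, as of all genes, were then called. Without lung WT replicate 2 or lung KO replicate 2, 1 of the 15 (*Aldoc*) fell in lung.

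**Figure D1:**
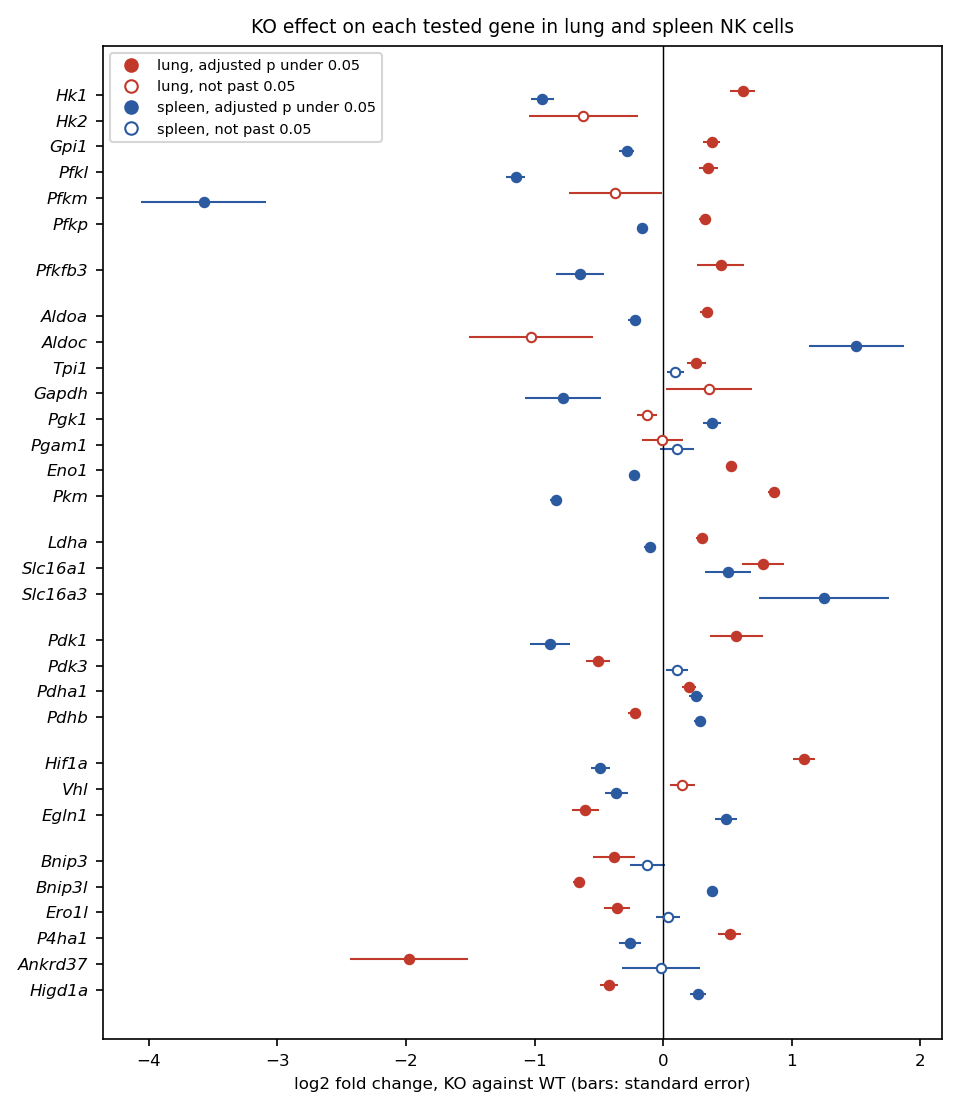
Log2 fold change of KO against WT (x axis, with its standard error) for the tested genes, in lung (red) and spleen (blue). Filled points passed an adjusted p of 0.05, and gaps separate the roles. Lung *Slc16a3* and spleen *Hk2* are left out because 1 of their groups held 0 or 1 reads in all. From *Hk1* to *Ldha* the filled red points lie to the right of 0 and most filled blue points to the left.

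Of the 31 tested genes, 19 were called in both organs, 12 of them higher in lung KO and lower in spleen KO (*Hk1*, *Gpi1*, *Pfkl*, *Pfkp*, *Pfkfb3*, *Aldoa*, *Eno1*, *Pkm*, *Ldha*, *Pdk1*, *Hif1a* and *P4ha1*), against 14.2% of all genes tested. Another 4 were lower in lung KO and higher in spleen KO (*Pdhb*, *Egln1*, *Bnip3l* and *Higd1a*), against 12.8%, and 3 changed in the same direction (*Slc16a1*, *Slc16a3* and *Pdha1*). Thus 84.2% of them changed in opposite directions, against 77.9% of the 4367 genes called in both organs among all genes tested, so opposite directions were common throughout these libraries. Without spleen KO replicate 2, 8 genes were higher in lung KO and lower in spleen KO (*Pfkp*, *Pfkfb3*, *Ldha* and *P4ha1* were no longer among them), against 9.82% of all genes. There were also 8 with the GC trend removed (without *Pfkl*, *Aldoa*, *Eno1* and *Ldha*), against 13.9%, and 8 by DESeq2 (without *Pfkfb3*, *Ldha*, *Pdk1* and *P4ha1*), against 7.53%.

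Promoter sequence is given for 5 genes, chosen after their values were seen, to show the core letters of the hypoxia response element, ACGTG or GCGTG, to which HIF-1 binds in the promoters of many of these genes. The windows are the 250 bases before a RefSeq start site (build GRCm38.p6), less any part that the annotation gives as exon (in *Egln1* and *Ankrd37*). Where a gene has several start sites, the window with the most matches is given, and matches on either strand are in capitals. *Hif1a*, *Ldha* and *P4ha1* are shown as genes higher in lung KO and lower in spleen KO, the last 2 with spleen calls that ended without spleen KO replicate 2. *Egln1* is shown as a gene lower in lung KO and higher in spleen KO, and *Ankrd37* as one that fell in lung and was not called in spleen (-0.015, adjusted p = 0.984).
Ldha, chr7:46845554-46845803, plus strand: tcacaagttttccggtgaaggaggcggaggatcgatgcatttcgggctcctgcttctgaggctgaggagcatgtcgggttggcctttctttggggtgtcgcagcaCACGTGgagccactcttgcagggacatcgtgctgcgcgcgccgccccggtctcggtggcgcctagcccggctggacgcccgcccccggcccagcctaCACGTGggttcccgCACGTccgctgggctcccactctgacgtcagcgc
P4ha1, chr10:59323046-59323295, plus strand: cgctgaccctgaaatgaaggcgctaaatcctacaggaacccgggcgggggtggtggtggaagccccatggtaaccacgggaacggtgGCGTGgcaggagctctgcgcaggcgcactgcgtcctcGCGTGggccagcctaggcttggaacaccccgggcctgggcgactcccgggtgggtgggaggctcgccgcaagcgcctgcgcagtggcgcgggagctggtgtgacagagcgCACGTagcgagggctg
Hif1a, chr12:73907617-73907866, plus strand: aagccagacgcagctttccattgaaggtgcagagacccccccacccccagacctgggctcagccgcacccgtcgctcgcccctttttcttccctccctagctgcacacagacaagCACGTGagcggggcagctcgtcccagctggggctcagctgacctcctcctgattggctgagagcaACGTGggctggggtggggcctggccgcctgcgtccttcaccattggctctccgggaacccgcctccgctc
Egln1, chr8:124949325-124949504, minus strand: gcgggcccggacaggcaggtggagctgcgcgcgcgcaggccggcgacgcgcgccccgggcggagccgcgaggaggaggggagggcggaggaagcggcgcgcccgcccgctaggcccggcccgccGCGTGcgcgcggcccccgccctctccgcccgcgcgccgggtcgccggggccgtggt
Ankrd37, chr8:45999868-46000100, minus strand: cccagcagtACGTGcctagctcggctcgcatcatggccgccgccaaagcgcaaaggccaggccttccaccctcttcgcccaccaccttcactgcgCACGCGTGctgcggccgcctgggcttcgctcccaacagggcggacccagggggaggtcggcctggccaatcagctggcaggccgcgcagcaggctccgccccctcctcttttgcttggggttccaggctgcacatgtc

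The core letters stand both in the genes shown that rose in lung KO and in those that fell. Each palindrome CACGTG in *Ldha* (2) and *Hif1a* (1) holds ACGTG on both strands and is counted as 2 matches, and CACGCGTG in *Ankrd37* likewise holds GCGTG on both strands. A gene with several start sites has several windows of 250 bases, and a match in any of them was counted. Of the 34 genes with a window (all but *Bnip3l*, with *Ero1l* listed by RefSeq as *Ero1a*), 20 (58.8%) held ACGTG, 24 (70.6%) GCGTG and 31 (91.2%) either of them. The same shares were 18.5%, 30.9% and 41.5% of all 27025 genes with a window, and 25.4%, 50.5% and 62.0% of the 8670 tested genes that had one. These letters were held by 11 of the 12 genes higher in lung KO and lower in spleen KO and by the 3 genes of the opposite group that had a window, so in this reading both groups carried them. The genes were listed partly as known HIF-1 targets, a match of 5 letters is not a binding site, and no binding was measured here.

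All 6 genes of the hexose steps fell in spleen, against 28.9% of all genes tested. In lung 4 of them rose and 0 fell, against 29.2% and 26.4% of all genes. *Hk1*, the hexokinase that commits glucose to the cell, stood at 29.0 and 31.3 CPM in the lung WT libraries and at 44.0 and 46.9 CPM in lung KO. This was a log2 fold change of 0.62 ± 0.10 (SE, n = 2 against 2, adjusted p = 1.81e-06). In spleen it stood at 40.2 and 41.1 CPM in WT and 21.2 and 21.3 CPM in KO, a log2 fold change of -0.94 ± 0.093 (adjusted p = 8.42e-11). The groups did not overlap in either organ, and spleen KO was the lowest of the 4 groups. *Pfkl*, the liver-type subunit of phosphofructokinase at chr10:77986947-78010083 (GRCm38, positions from GENCODE M21), was at 64.0 and 68.9 CPM in lung WT and 84.3 and 83.7 CPM in lung KO (log2 fold change 0.35 ± 0.077, adjusted p = 1.92e-04). In spleen it fell from 87.7 and 86.2 CPM to 32.0 and 40.4 CPM (log2 fold change -1.15 ± 0.074, adjusted p = 1.27e-15), a fall exceeded in spleen only by the low counts of *Hk2* and *Pfkm*. *Gpi1*, which turns glucose-6-phosphate into fructose-6-phosphate, rose by 0.38 ± 0.068 in lung and fell by 0.28 ± 0.059 in spleen on the log2 scale, from 109 and 111 CPM to 91.7 and 90.4 CPM. *Pfkp*, the platelet-type phosphofructokinase subunit, was the most abundant of the 3 subunits in CPM per kb. It went from 301 and 306 CPM to 383 and 377 CPM in lung and from 311 and 308 CPM to 284 and 273 CPM in spleen. With the GC trend removed, *Pfkl* in lung came to 0.11 (adjusted p = 0.228), and without the deeper spleen KO library (replicate 2) *Pfkp* in spleen came to -0.12 (adjusted p = 0.139).

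The other hexokinase and phosphofructokinase genes were near the limit of counting. *Hk2*, the inducible hexokinase, had 5 and 11 reads in spleen WT and 0 and 1 reads in spleen KO, the second of these in a library of 26482366 reads. The WT to KO ratio was 37.2 with an exact 95% interval of 5.77 to 1558 that covers counting error only. In lung it had 2.11 and 2.59 CPM in WT and 1.23 and 1.63 CPM in KO, and the difference did not pass the test (log2 fold change -0.62 ± 0.42, adjusted p = 0.216). *Pfkm*, the muscle-type subunit, had 10 and 28 reads in spleen WT and 0 and 7 reads in spleen KO, a ratio of 12.6 (5.56 to 33.5), and did not differ past the threshold in lung (adjusted p = 0.398). Its spleen log2 fold change was -3.57 ± 0.49, or -7.11 (adjusted p = 0.00138) without KO replicate 2, which leaves spleen KO at 0 reads. *Pfkm* overlaps *Senp1* on the opposite strand, which had 129 to 1116 reads per library, and the strand setting of the counting is not given in the sources used here. *Pfkfb3*, which makes the phosphofructokinase activator fructose-2,6-bisphosphate, rose by 0.45 ± 0.18 in lung (adjusted p = 0.0369) and fell by 0.65 ± 0.19 in spleen (adjusted p = 0.00329) on the log2 scale. Its lung libraries overlapped, at 13.1 and 9.84 CPM in WT and 11.5 and 19.7 CPM in KO. Without lung KO replicate 2 the lung value turned to -0.058 (adjusted p = 0.864), without lung WT replicate 2 it was 0.32 (adjusted p = 0.182), without WT replicate 1 and KO replicate 1 it was 0.72 (adjusted p = 0.0201) and 0.73 (adjusted p = 3.86e-04), and with the replicate number as a block 0.40 (adjusted p = 0.0544). In spleen the *Pfkfb3* fall missed the threshold without WT replicate 2, at -0.64 (adjusted p = 0.0531), and without KO replicate 2, at -0.75 (adjusted p = 0.0767).

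From aldolase to pyruvate, 4 of 8 genes rose in lung and 0 fell, against 29.2% and 26.4% of all genes tested. In spleen 2 rose and 4 fell, against 28.2% and 28.9% of all genes. *Pkm*, the pyruvate kinase that makes pyruvate and ATP in the last step, lies at chr9:59656368-59679375. It was counted at 188 and 183 CPM in lung WT and 352 and 326 CPM in lung KO, which is 1.82-fold higher (log2 fold change 0.86 ± 0.049, adjusted p = 4.39e-17). In spleen it was counted at 315 and 301 CPM in WT and 172 and 173 CPM in KO, which is 1.78-fold lower (log2 fold change -0.83 ± 0.048, adjusted p = 4.93e-17). The KO libraries thus lay on opposite sides of WT in the 2 organs, with lung WT close to spleen KO and spleen WT close to lung KO. *Eno1*, the enolase before pyruvate kinase, stood at 424 and 454 CPM in lung WT, 616 and 644 CPM in lung KO, 587 and 582 CPM in spleen WT and 486 and 505 CPM in spleen KO, with no overlap between genotypes in either organ. It rose by 0.53 ± 0.042 in lung (adjusted p = 2.25e-13) and fell by 0.23 ± 0.040 in spleen (adjusted p = 9.51e-06). With the GC trend removed, the spleen value was 0.0078 (adjusted p = 0.881) and the lung value 0.28 (adjusted p = 8.70e-08).

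*Aldoa*, the aldolase that splits fructose-1,6-bisphosphate, went from 203 and 223 CPM to 264 and 268 CPM in lung (adjusted p = 4.77e-07) and from 243 and 236 CPM to 211 and 203 CPM in spleen (adjusted p = 1.61e-04). With the GC trend removed, *Aldoa* was at 0.10 (adjusted p = 0.0667) in lung and -0.0039 (adjusted p = 0.961) in spleen. *Tpi1*, triose phosphate isomerase, rose in lung from 65.1 and 68.6 CPM to 77.4 and 80.8 CPM (log2 fold change 0.26 ± 0.073, adjusted p = 0.00302) and did not pass in spleen (adjusted p = 0.21). The *Tpi1* call ended without lung WT replicate 1, at 0.20 (adjusted p = 0.12), without lung KO replicate 2, at 0.22 (adjusted p = 0.0616), and with the GC trend removed, at 0.13 (adjusted p = 0.115). *Pgk1*, the phosphoglycerate kinase of the first ATP-yielding step, went the other way from most of the pathway in spleen. It rose from 52.7 and 54.0 CPM in WT to 68.6 and 69.9 CPM in KO (log2 fold change 0.38 ± 0.070, adjusted p = 1.74e-05). In lung it stood at 61.3 and 64.5 CPM in WT and 56.1 and 57.8 CPM in KO (adjusted p = 0.163). *Pgam1*, phosphoglycerate mutase, passed in neither organ (log2 fold changes -0.0059 ± 0.16 and 0.11 ± 0.13, adjusted p = 0.98 and 0.508).

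*Aldoc*, the brain-type aldolase, was low, at 1.50 and 1.05 CPM in spleen WT and 2.94 and 3.49 CPM in spleen KO. Its rise in spleen (log2 fold change 1.50 ± 0.37, adjusted p = 7.00e-04) ended without spleen WT replicate 2, at 1.18 (adjusted p = 0.0923), and without spleen KO replicate 2, at 1.28 (adjusted p = 0.149). *Gapdh*, the glyceraldehyde-3-phosphate dehydrogenase often used as a reference gene, had only 6 to 52 reads per library, or 3.25 and 3.51 CPM in spleen WT and 1.96 and 1.99 CPM in spleen KO. Of its 50-base windows, 82.5% also occur in transcripts of other genes, 222 genes in all, and reads with several alignments were left out of the counts. The fall of *Gapdh* in spleen (log2 fold change -0.78 ± 0.30, adjusted p = 0.0246) was not called without spleen WT replicate 2, at -0.70 (adjusted p = 0.251), or without spleen KO replicate 2, at -0.80 (adjusted p = 0.308).

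**Figure D2:**
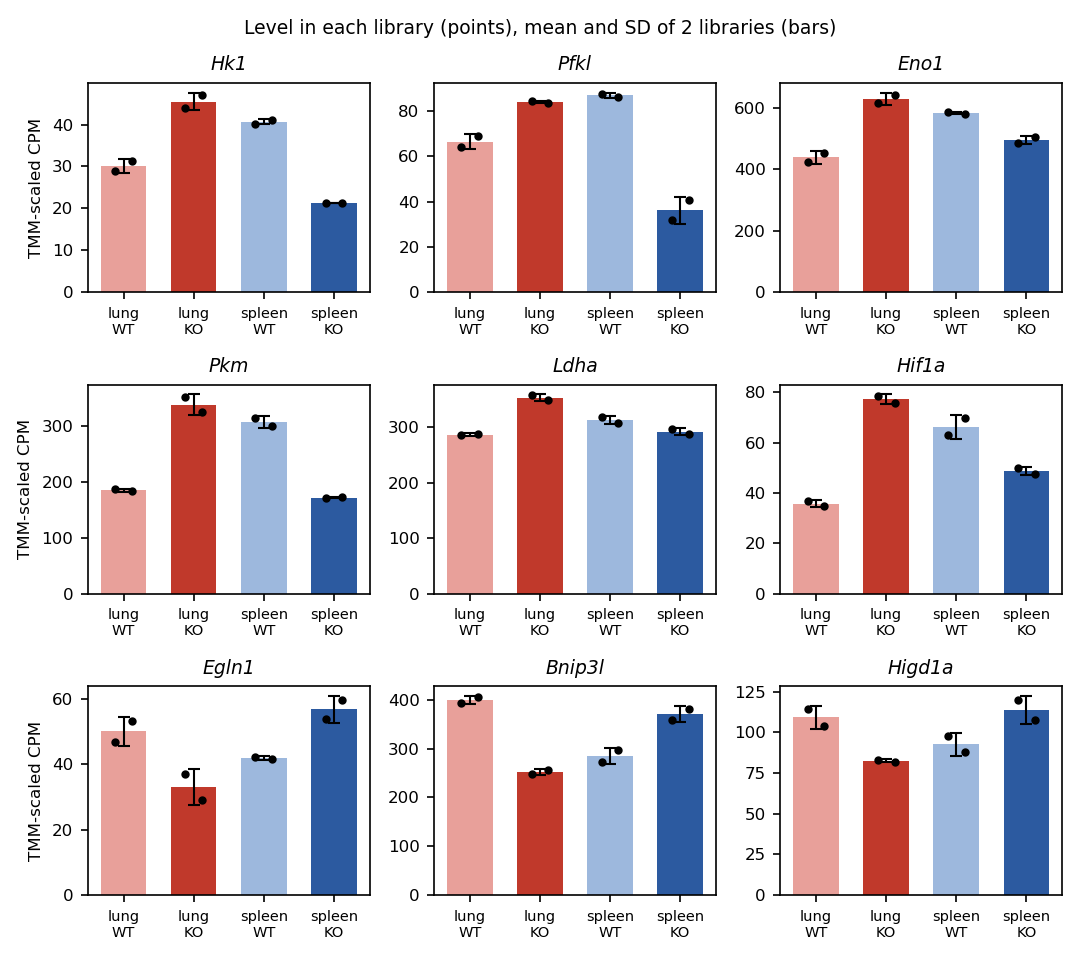
TMM-scaled CPM of 9 of the genes in each of the 8 libraries (points), with the mean and SD of the 2 libraries of a group (bars). *Hk1*, *Pfkl*, *Eno1*, *Pkm*, *Ldha* and *Hif1a* are higher in KO in lung and lower in KO in spleen, and *Egln1*, *Bnip3l* and *Higd1a* are the reverse.

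Lactate formation and export were not all of 1 kind. *Ldha*, the subunit that favours making lactate from pyruvate, was at 285 and 288 CPM in lung WT and 357 and 348 CPM in lung KO (log2 fold change 0.30 ± 0.044, adjusted p = 4.33e-07). In spleen the difference was small, 318 and 308 CPM in WT and 296 and 288 CPM in KO (log2 fold change -0.10 ± 0.043, adjusted p = 0.0362). The *Ldha* call in spleen came to -0.076 (adjusted p = 0.381) without spleen KO replicate 2, -0.088 (adjusted p = 0.146) without spleen WT replicate 1 and -0.13 (adjusted p = 0.0584) without spleen WT replicate 2. By DESeq2 it was -0.095 (adjusted p = 0.232). *Slc16a1*, the monocarboxylate transporter MCT1, was higher in KO in both organs, with 10.6 and 16.1 CPM in lung WT, 21.1 and 21.5 CPM in lung KO, 7.49 and 8.41 CPM in spleen WT and 15.3 and 10.9 CPM in spleen KO. Its log2 fold change was 0.78 ± 0.16 in lung (adjusted p = 1.15e-04) and 0.50 ± 0.18 in spleen (adjusted p = 0.0164). The lung call of *Slc16a1* ended without lung WT replicate 1, at 0.40 (adjusted p = 0.108). Its spleen value was 0.92 (adjusted p = 0.00554) without KO replicate 2, and the call ended without either spleen WT library, at 0.44 (adjusted p = 0.0705) and 0.61 (adjusted p = 0.0706). *Slc16a3*, the lactate exporter MCT4, had 0 and 0 reads in lung WT and 15 and 8 reads in lung KO, at least 7.46-fold higher when lung WT is set to 3 reads over the group (adjusted p = 3.13e-05). In spleen it went from 0.749 and 0.701 CPM to 2.61 and 1.61 CPM (adjusted p = 0.034). This call ended when any 1 of the 4 spleen libraries was left out, for example at 1.20 (adjusted p = 0.268) without WT replicate 2.

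Pyruvate dehydrogenase, which sends pyruvate to the mitochondrial citric acid cycle, and the kinases that switch it off did not move as 1 unit. *Pdk1*, a kinase of the complex and a known HIF-1 target, had 9.82 and 7.77 CPM in lung WT and 13.5 and 13.6 CPM in lung KO. It had 15.7 and 20.1 CPM in spleen WT and 4.90 and 10.9 CPM in spleen KO. It rose in lung (log2 fold change 0.57 ± 0.20, adjusted p = 0.0175) and fell in spleen (-0.88 ± 0.16, adjusted p = 1.09e-05), where its 2 KO libraries differed most from each other. Without spleen KO replicate 2 the spleen fall was -1.92 (adjusted p = 1.46e-06). The lung call ended without lung WT replicate 2, at 0.46 (adjusted p = 0.0801), and without lung KO replicate 2, at 0.57 (adjusted p = 0.0714). *Pdk3*, another of these kinases, fell in lung from 55.1 and 56.0 CPM to 43.0 and 36.2 CPM (log2 fold change -0.51 ± 0.092, adjusted p = 1.52e-05) and did not pass in spleen (adjusted p = 0.271). The complex's own E1 subunits split, since *Pdha1* was higher in KO in both organs (log2 fold changes 0.20 and 0.26, adjusted p = 0.00208 and 9.11e-05) while *Pdhb* was lower in lung KO (-0.22, adjusted p = 2.15e-04) and higher in spleen KO (0.28, adjusted p = 1.95e-06). *Pdhb* libraries did not overlap between genotypes, at 242 and 255 CPM in lung WT, 208 and 216 CPM in lung KO, 219.6 and 227 CPM in spleen WT and 277 and 271 CPM in spleen KO.

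*Hif1a*, at chr12:73901375-73947530, encodes the oxygen-regulated HIF-1α subunit, whose protein is set mainly by degradation, so that its mRNA is only 1 input to it. It was counted at 36.7 and 34.7 CPM in lung WT and 78.6 and 75.8 CPM in lung KO, 2.14-fold higher (log2 fold change 1.10 ± 0.085, adjusted p = 1.83e-13). In spleen it was counted at 62.9 and 69.8 CPM in WT and 49.9 and 47.6 CPM in KO, 1.40-fold lower (log2 fold change -0.49 ± 0.073, adjusted p = 4.42e-07). Lung WT was the lowest and lung KO the highest of the 4 groups, and no library overlapped a library of another group. *Egln1*, the prolyl hydroxylase PHD2 that marks HIF-1α for degradation, went the other way in both organs, with 46.9 and 53.1 CPM in lung WT, 36.8 and 29.0 CPM in lung KO, 42.2 and 41.5 CPM in spleen WT and 53.9 and 59.6 CPM in spleen KO. It fell by 0.61 ± 0.10 in lung (adjusted p = 5.70e-06) and rose by 0.49 ± 0.085 in spleen (adjusted p = 7.06e-06) on the log2 scale. *Vhl*, the substrate receptor of the ubiquitin ligase, was at 39.5 and 40.1 CPM in spleen WT and 26.8 and 31.7 CPM in spleen KO (log2 fold change -0.36 ± 0.089, adjusted p = 6.43e-04). It did not pass in lung (0.15, adjusted p = 0.182). Without spleen KO replicate 2 the *Vhl* value in spleen was -0.57 (adjusted p = 0.00412).

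The genes listed as other HIF-1 targets mostly did not follow *Hif1a* in lung. There, 1 of the 6 tested rose and 5 fell, and in spleen 2 rose, 1 fell and 3 did not pass. Of all genes, 28.2% rose and 28.9% fell in spleen. This does not extend to all HIF-1 targets, since *Pdk1*, listed with pyruvate dehydrogenase, rose in lung (0.57). Of the 17 further hypoxia-response genes tested, 6 were higher and 3 lower in lung KO, against 29.2% and 26.4% of all genes. *Bnip3l*, a mitophagy receptor on the outer mitochondrial membrane, was at 394 and 406 CPM in lung WT and 248 and 256 CPM in lung KO (log2 fold change -0.66 ± 0.047, adjusted p = 2.03e-14). In spleen it was at 273 and 297 CPM in WT and 359 and 382 CPM in KO (log2 fold change 0.38 ± 0.045, adjusted p = 4.31e-09), or 0.20 (adjusted p = 5.80e-05) with the GC trend removed. Lung WT and spleen KO held the high libraries and lung KO the low ones, the reverse of *Pkm* and *Hif1a*. *Higd1a*, a mitochondrial protein of the respiratory chain, went from 114 and 104 CPM to 83.1 and 82.0 CPM in lung (log2 fold change -0.42 ± 0.071, adjusted p = 4.11e-06). In spleen it went from 97.7 and 87.7 CPM to 119.8 and 108 CPM (0.27 ± 0.064, adjusted p = 4.80e-04). The spleen call ended without WT replicate 2, at 0.17 (adjusted p = 0.114).

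*Ankrd37*, an ankyrin-repeat gene induced by hypoxia in many cells, was at 2.98 and 2.85 CPM in lung WT and 0.819 and 0.680 CPM in lung KO, or 24 and 11 reads against 4 and 5 reads. This was the largest fall in lung among the 31 genes (log2 fold change -1.98 ± 0.46, adjusted p = 3.88e-04). It stood at 2.50 and 2.45 CPM in spleen WT and 2.94 and 2.37 CPM in spleen KO, so lung KO was alone in being low. *Ankrd37* overlaps *Ufsp2* on the opposite strand, with 174 to 1611 reads per library against its own 4 to 62. *P4ha1*, a collagen prolyl hydroxylase, was the target that went with the enzymes. It rose from 41.9 and 45.9 CPM to 61.6 and 62.2 CPM in lung (log2 fold change 0.52 ± 0.090, adjusted p = 7.75e-06). In spleen it went from 51.0 and 50.4 CPM to 50.3 and 40.8 CPM (-0.26 ± 0.083, adjusted p = 0.00814). The spleen *P4ha1* call rested on KO replicate 2, without which it was -0.0087 (adjusted p = 0.983), and it also ended without WT replicate 2, at -0.27 (adjusted p = 0.07). *Ero1l*, the oxidase of protein disulfide formation, and *Bnip3*, the second mitophagy receptor, fell less in lung, with log2 fold changes of -0.36 ± 0.10 (adjusted p = 0.00252) and -0.38 ± 0.16 (adjusted p = 0.0414). The *Bnip3* call, at 15.4 and 17.4 CPM in WT and 11.7 and 12.8 CPM in KO, ended when any 1 of the 4 lung libraries was left out, for example at -0.32 (adjusted p = 0.151) without KO replicate 1. The *Ero1l* call ended without lung WT replicate 1, at -0.25 (adjusted p = 0.146).

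Whether the KO effect differed between the organs was tested directly. This test (KO effect in lung minus KO effect in spleen) called 26 of the 31 genes, 17 with a positive and 9 with a negative difference. Of all genes tested 61.6% were called, 32.5% and 29.0% in these directions. By the smallest p, the leading differences were those of *Pkm* (1.69 ± 0.069 on the log2 scale, adjusted p = 5.53e-22), *Bnip3l* (-1.04 ± 0.065, adjusted p = 1.83e-16) and *Hif1a* (1.59 ± 0.11, adjusted p = 6.17e-15). After these came *Pfkl* (1.50 ± 0.11, adjusted p = 6.35e-15) and *Eno1* (0.76 ± 0.058, adjusted p = 5.17e-14). *Tpi1*, *Pgam1*, *Slc16a1*, *Pdha1* and *Bnip3* did not pass this test, with differences of 0.16, -0.11, 0.28, -0.055 and -0.26. With the GC trend removed, the difference for *Aldoa* came to 0.10 (adjusted p = 0.162), for *Eno1* to 0.27 (adjusted p = 2.79e-05) and for *Bnip3l* to -0.68 (adjusted p = 1.89e-12).

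The levels of the 2 organs were then compared within each genotype. In WT, 20 of the 31 genes differed between lung and spleen, against 57.0% of all genes tested. Of these, 9 were higher and 11 lower in lung (27.7% and 29.3% of all genes), or 5 and 13 when scaled by library totals. That scaling called 7253 of 12595 genes (57.6%), only 2674 of them higher in lung, and moved the median of all genes to -0.12. In KO 24 differed, against 65.6%, with 17 higher and 7 lower in lung (33.9% and 31.7% of all genes). Among the 15 enzyme genes from *Hk1* to *Ldha*, lung was higher for 1 (*Pgk1*) and lower for 7 in WT (0 and 9 by library totals), and higher for 10 and lower for 2 (*Pgk1* and *Aldoc*) in KO. The *Pgk1* call in WT ended without lung WT replicate 2 or either spleen WT library (adjusted p = 0.0618, 0.0574 and 0.0775), and the KO calls of *Pgk1* and *Aldoc* ended without spleen KO replicate 2 (adjusted p = 0.0723 and 0.0917). *Pkm* had a log2 difference, lung minus spleen, of -0.72 ± 0.050 in WT (adjusted p = 5.57e-15) and 0.97 ± 0.047 in KO (adjusted p = 4.96e-20). For *Hif1a* these differences were -0.90 ± 0.087 (adjusted p = 3.56e-11) and 0.68 ± 0.071 (adjusted p = 1.12e-10). For *Bnip3l*, in the reverse order, they were 0.47 ± 0.047 (adjusted p = 5.25e-11) and -0.57 ± 0.046 (adjusted p = 1.60e-13). The organ comparisons use the same libraries as the KO comparisons, so they restate these levels and are no separate evidence.

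**Figure D3:**
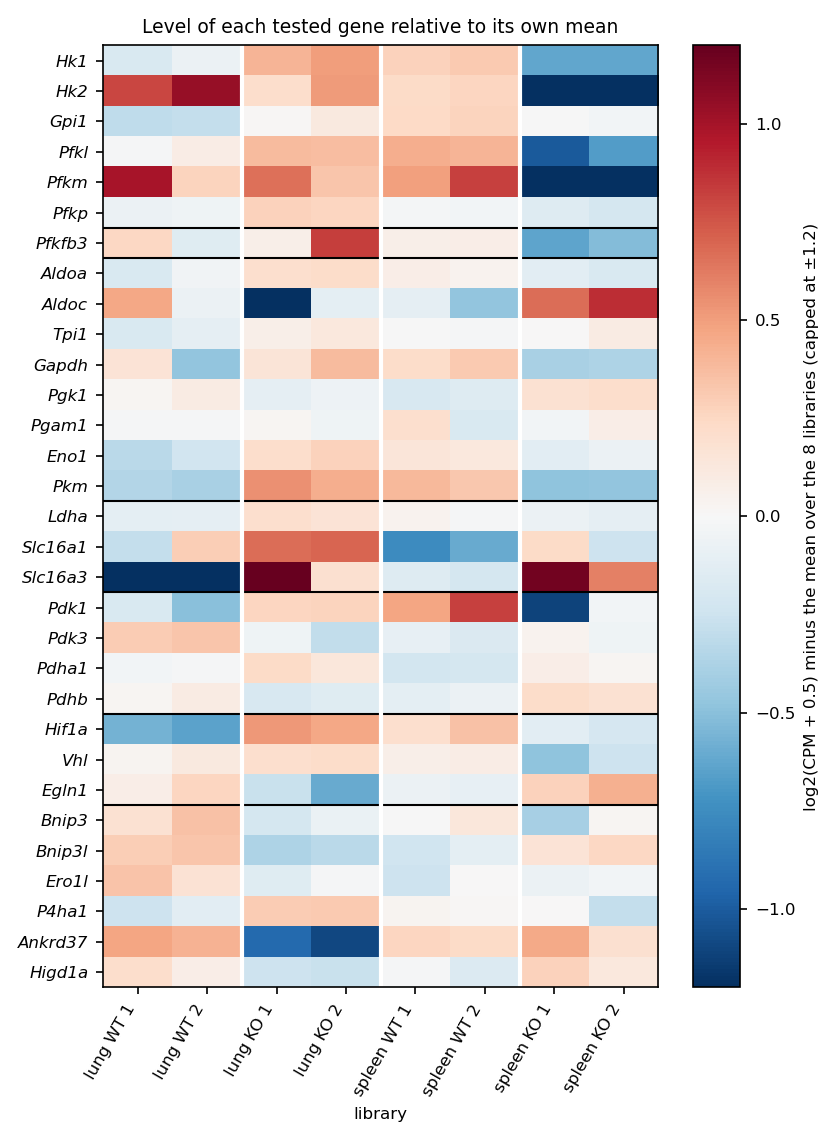
Level of each tested gene (rows, lines between roles) in each library (columns), as log2(CPM + 0.5) minus the gene's mean over the 8 libraries, with colours capped at 1.2 on either side. In the rows of *Hk1*, *Aldoa*, *Eno1*, *Pkm* and *Hif1a* lung KO and spleen WT are red and lung WT and spleen KO are blue, and the rows of *Pgk1*, *Pdhb*, *Egln1* and *Bnip3l* are the reverse.

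The size of these changes has to be read against how abundant the genes are. Per kb of exon, *Eno1* was the most abundant of the 35 genes by the mean over all libraries, with group means of 81.6 to 117 CPM per kb, followed by *Ldha* (86.5 to 107), *Bnip3l* (65.4 to 104), *Aldoa* (71.0 to 91.5), *Pdhb* (54.8 to 71.0) and *Pkm* (34.4 to 67.8). The ranges of neighbouring genes in this order overlapped, and in lung WT and spleen KO *Bnip3l* was above both *Eno1* and *Ldha* (104 and 96.0 CPM per kb against 81.6 and 92.1 for *Eno1*). *Hif1a* was at 6.05 to 13.1 CPM per kb and *Hk1* at 2.49 to 5.33, far above *Hk2* (0.00321 to 0.394). Among the 4 genes that did not pass the filter was *Ldhb*, the subunit that favours making pyruvate from lactate. It had 0 reads in both lung WT libraries and 1.75 and 0.701 CPM in spleen WT. *Egln3*, the prolyl hydroxylase PHD3, had 0 reads in lung WT and 9 in lung KO, at least 2.92-fold higher with lung WT set to 3 reads. *Vegfa*, the angiogenic growth factor, stayed between 0.250 and 1.31 CPM and *Pfkfb4*, a second regulator of phosphofructokinase, between 0.584 and 2.05 CPM, and none of these 4 was in the fit. With no filter on low counts, *Egln3* was higher in lung KO (adjusted p = 0.00599), and *Ldhb* was lower in spleen KO (adjusted p = 0.0492) and lower in lung than in spleen in WT (adjusted p = 0.00106). The KO effect on *Ldhb* also differed between the organs there (adjusted p = 0.016), and *Pfkfb4* and *Vegfa* were not called. In that fit 17 of the 35 genes were higher and 7 lower in lung KO. Of all 21508 genes in it, 35.5% were called in lung (7638 genes, 4102 of them higher).

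The reading of some genes is limited by copies of them elsewhere in the genome. Of the 50-base windows of the longest coding transcript, the length of the reads, 72.2% were shared with another gene's transcript for *Eno1*, 68.0% for *Pgk1*, 62.4% for *Bnip3*, 41.5% for *Pgam1*, 36.6% for *Higd1a*, 34.4% for *Pkm*, 30.3% for *Pdhb*, 25.3% for *Gpi1* and 23.4% for *Bnip3l*. Genes such as *Hk2*, *Slc16a1*, *Pdk1*, *Pdk3*, *Vhl*, *Egln1*, *Ero1l* and *P4ha1* shared none. Reads that aligned to several places were left out of the counts, so the levels of the genes with large shares are uncertain. Of the copies counted as symbols of their own, *Bnip3l-ps* had up to 541 reads in a library, *Eno1b* up to 168 and *Aldoart1* up to 89, and the other 10 had at most 5. *Hk1*, *Gpi1*, *Pfkm*, *Pfkp*, *Aldoa*, *Tpi1*, *Gapdh*, *Pdha1*, *Hif1a* and *Ankrd37* overlap a gene on the opposite strand, whose reads cannot be told apart from theirs if strand was not used.

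**Figure D4:**
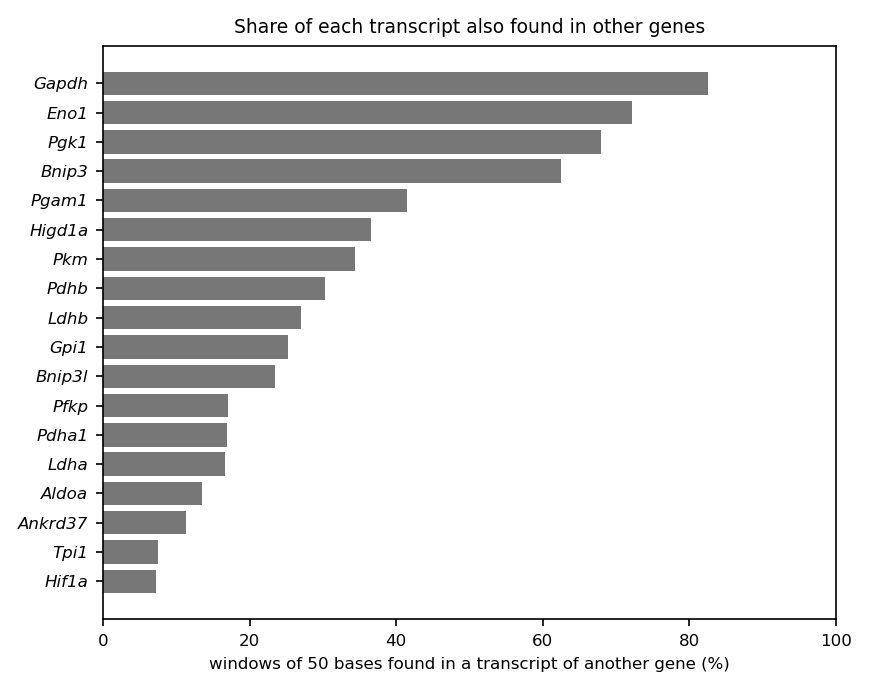
Share of the 50-base windows of each gene's longest coding transcript that also occur in a transcript of another gene (x axis, percent), for the genes above 5%. *Gapdh*, *Eno1*, *Pgk1* and *Bnip3* share more than 60% of their windows.

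A property of the sequence itself moved with the KO effect. Across the 12501 tested genes with a known GC content, the log2 fold change had a Spearman correlation with GC content of 0.293 in lung and -0.276 in spleen, over genes that share their libraries and are not independent. The 12 genes higher in lung KO and lower in spleen KO had a median GC content of 52.5% (41.3 to 57.7%), and the 4 of the opposite group 49.4% (41.9 to 56.0%), against 49.3% over all genes. *Hif1a*, with the lowest GC content of the 12 genes at 41.3%, had a log2 fold change of 1.30 (adjusted p = 7.61e-16) in lung and -0.68 (adjusted p = 1.53e-10) in spleen with the trend removed. *Pkm*, with the highest at 57.7%, had 0.60 (adjusted p = 3.43e-13) and -0.59 (adjusted p = 9.84e-14). *Hk1* in lung came to 0.40 (adjusted p = 8.22e-04) and *Gpi1* to 0.25 (adjusted p = 0.00175). The part of GC content in the KO effects was not tested further.

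The rest of the pathway was read from lists that are not part of the 35 genes. Of 30 further genes of glycolysis and pyruvate use, 20 were tested, of which 9 were higher, 8 lower and 3 not called in lung KO, and 6 higher, 6 lower and 8 not called in spleen KO. The genes called among all genes tested were 55.6% in lung and 57.1% in spleen. *Slc2a6*, a glucose transporter of the GLUT family, was at 3.11 and 1.81 CPM in lung WT, 3.48 and 5.58 CPM in lung KO, 9.49 and 9.70 CPM in spleen WT and 2.61 and 2.68 CPM in spleen KO. Its log2 fold changes were 0.81 ± 0.32 in lung (adjusted p = 0.0278) and -1.84 ± 0.22 in spleen (adjusted p = 7.94e-09). *Pdk2*, another pyruvate dehydrogenase kinase, and *Hk3*, another hexokinase, were the other leading rises in lung (0.81 ± 0.16, adjusted p = 3.81e-05, and 0.77 ± 0.26, adjusted p = 0.0106). *Pfkfb1*, *Pfkfb2* and *Tigar*, all of which act on fructose-2,6-bisphosphate, were the leading falls in lung (-0.91, -0.91 and -0.64, adjusted p = 0.00672, 0.0246 and 0.009). In spleen *Pfkfb2* (1.21 ± 0.36, adjusted p = 0.0044), *Tigar* (0.78 ± 0.25, adjusted p = 0.00869) and *Hk3* (0.73 ± 0.22, adjusted p = 0.00557) were the leading rises, so *Hk3* rose in both organs. *Pfkfb1* fell in spleen too (-0.90 ± 0.38, adjusted p = 0.0442). *Dlat*, the E2 subunit of pyruvate dehydrogenase, fell in spleen from 52.5 and 53.4 CPM to 22.9 and 26.5 CPM (-1.03 ± 0.085, adjusted p = 1.14e-12).

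Of 26 further hypoxia-response genes, 24 were in the files and 17 were tested, of which 6 were higher, 3 lower and 8 not called in lung KO, and 5 higher, 4 lower and 8 not called in spleen KO, against the same 55.6% and 57.1% of all genes called. *Ddit4*, an inhibitor of mTORC1 induced by hypoxia, went from 95.7 and 83.3 CPM in spleen WT to 43.7 and 37.8 CPM in spleen KO (log2 fold change -1.18 ± 0.076, adjusted p = 1.20e-15). *Ndrg1*, a stress-response gene, went from 5.25 and 6.31 CPM to 9.79 and 10.8 CPM (0.84 ± 0.19, adjusted p = 2.24e-04). The main glucose transporter genes, *Slc2a1* and *Slc2a3*, were chosen for naming after their values were seen. *Slc2a1* was at 38.9 and 37.0 CPM in lung WT and 63.0 and 64.5 CPM in lung KO (log2 fold change 0.74 ± 0.086, adjusted p = 3.39e-09). In spleen it was at 47.0 and 48.0 CPM in WT and 32.0 and 32.6 CPM in KO (-0.55 ± 0.082, adjusted p = 4.58e-07). *Slc2a3* was at 285 and 303 CPM and 326 and 333 CPM in lung WT and KO (0.18 ± 0.046, adjusted p = 0.00146), and it was at 217 and 223 CPM and 121 and 114 CPM in spleen WT and KO (-0.94 ± 0.051, adjusted p = 1.45e-17).

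How many of these calls stand depends on the spread between libraries. The fit estimated a common biological coefficient of variation of 2.50% from 2 libraries a group. When 0.2 was assumed for every gene instead, 4 of the 31 genes stayed called in lung (3 higher) and 7 in spleen (1 higher), against 12.4% and 9.08% of all genes. In 27 of the 31 genes the 2 KO libraries lay on 1 side of both WT libraries in lung (16 above, 11 below) and in 27 in spleen (11 above, 16 below), against 76.0% and 73.8% of all genes tested. Between organs the libraries did not overlap for 27 genes in WT (13 above, 14 below in lung, against 75.6%) and for 25 in KO (18 above, 7 below, against 79.4%). At an FDR of 0.001, 18 genes were called in lung and 18 in spleen, against 32.8% and 34.8% of all genes. At that threshold 10 were called between organs in WT (35.1%), 21 in KO (44.9%) and 22 for the difference of the KO effect (40.5%).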

How the data were processed

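RNA-seq of sorted NK cells was carried out with 50-base reads, and the 8 libraries form 4 groups of 2 by organ and genotype, as given in the labels. The authors aligned reads to mm10 with HISAT2 (2.1.0) and counted them per gene with HTSeq (0.11.1, per the submitters' processing notes), and the deposited files hold these raw counts. Multiply aligned reads were left out. The annotation and strand setting are not given in the sources used here. Reads in no gene were 52.7 to 55.0% of those HTSeq considered as uniquely placed, and its 5 summary categories were left out. Counts for 48321 symbols were filtered with edgeR's filterByExpr, leaving 12595 genes, scaled by TMM and fitted in all 8 libraries with edgeR's quasi-likelihood test (edgeR 4.0.16, R 4.3.3), with Benjamini-Hochberg adjustment and an FDR of 0.05. The comparisons were KO against WT in each organ, lung against spleen in each genotype, and the difference of the KO effect. CPM values are reads per 1000000 of the TMM-scaled total. Total reads on genes were 3132963 to 26482366 per library. Bounds against groups at 0 use 3 reads, and ratios of low counts have exact 95% intervals, both covering counting error only.

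The 35 genes and the further lists were chosen with earlier results of these data known. Any of the 35 could be named, and of the further pathway genes up to 3 per direction with the largest log2 fold change among those called in each KO comparison. Gene positions, GC content and 50-base windows shared between genes came from GENCODE M21 (GRCm38), and promoters from RefSeq (GRCm38.p6). The fit was tested on simulated data. Alternatives were DESeq2 (1.42.0), an assumed coefficient of variation of 0.2, only the libraries compared, other scalings and filters, a GC offset (spline, 5 df), the replicate number as a block, an FDR of 0.001 and leaving out each library.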

Additional observations from a re-analysis of the deposited data

Results flagged for a closer look

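For 26 of the 31 tested genes, the KO effect in lung NK cells differed from that in spleen by edgeR's quasi-likelihood test of the difference with Benjamini-Hochberg adjustment over 12595 genes, as it did for 61.6% of all genes tested. Values are the KO effect in lung minus that in spleen on the log2 scale. In the hexose steps the differences were 1.56 for *Hk1*, 4.08 for *Hk2*, 0.66 for *Gpi1*, 1.50 for *Pfkl*, 3.20 for *Pfkm* and 0.49 for *Pfkp*, and for the regulator *Pfkfb3* the difference was 1.10. From aldolase to pyruvate they were 0.56 for *Aldoa*, -2.53 for *Aldoc*, 1.13 for *Gapdh*, -0.51 for *Pgk1*, 0.76 for *Eno1* and 1.69 for *Pkm*. For lactate and pyruvate dehydrogenase they were 0.40 for *Ldha*, 5.72 for *Slc16a3*, 1.45 for *Pdk1*, -0.62 for *Pdk3* and -0.51 for *Pdhb*. Among the genes of HIF-1 and its turnover they were 1.59 for *Hif1a*, 0.52 for *Vhl* and -1.10 for *Egln1*, and among its other targets -1.04 for *Bnip3l*, -0.39 for *Ero1l*, 0.78 for *P4ha1*, -1.96 for *Ankrd37* and -0.69 for *Higd1a*.

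The values of *Hk2*, *Pfkm* and *Slc16a3* rest on a group with 0 to 7 reads and depend on the prior count of the fit. Without lung KO replicate 2, the *Pfkfb3* difference was 0.59 (adjusted p = 0.0773), without spleen KO replicate 2 that of *Hk2* was 5.25 (adjusted p = 0.0967), and without lung WT replicate 1 that of *Slc16a3* was 5.71 (adjusted p = 0.0811). The *Ero1l* difference was not called without lung WT replicate 1 (-0.30, adjusted p = 0.131), lung KO replicate 1, spleen WT replicate 1 or spleen KO replicate 2. The *Gapdh* difference was not called without the second replicate of any of the 4 groups (adjusted p from 0.0868 to 0.161). Without spleen KO replicate 2, the *Pdk1* difference was 2.49 (adjusted p = 3.87e-08) and that of *Pfkm* 6.73 (adjusted p = 0.00518), and without lung KO replicate 2 that of *Aldoc* was -3.87 (adjusted p = 2.36e-04). With 2 libraries a group, no library could be checked as an outlier.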

How the results depend on the processing

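Of 119 called values of the tested genes (a gene in a comparison), 75 stayed called in the same direction at an FDR of 0.05 in every alternative fit that tested the gene, other than the fit with a preset spread, and 74 of these also passed an FDR of 0.001. With a biological coefficient of variation of 0.2 preset for all genes, the genes called were 4 in lung, 7 in spleen, 3 between organs in WT, 9 between organs in KO and 10 for the difference of the KO effect, and among all genes 1557, 1144, 2011, 2316 and 2017. At an FDR of 0.001, 10 genes were called between organs in WT, and 4131, 4388, 4426, 5652 and 5106 of all genes in the 5 comparisons. DESeq2 called 19, 18, 15, 21 and 23 of the genes, against 35.8, 33.1, 38, 44 and 42.3% of all genes. Of all genes it called 4507 against 7000 (lung), 4165 against 7195 (spleen) and 4790 against 7185 (organs in WT) in the main fit. When 1 library was left out, the median log2 fold change of the 32 or 33 genes tested ranged from 0.21 to 0.30 in lung and -0.16 to -0.099 in spleen. Between organs it ranged from -0.021 to 0.052 in WT and 0.29 to 0.36 in KO. Most fits that left out a library of the groups compared called fewer of these genes, and also fewer of all genes. Without spleen KO replicate 2, the deepest library, 4448 of all genes were called in spleen.

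Values that turned sign were *Pfkfb3* in lung, at -0.058 without lung KO replicate 2 (up to 0.73 without another library), and *Eno1* in spleen, at 0.0078 with the GC trend removed and 0.0028 with the GC trend removed and the replicate block. With the GC trend removed, 19, 21, 15, 22 and 24 genes were called, against 53.7, 55.9, 55.9, 63.8 and 58.9% of all genes. Scaling by library totals moved the median log2 fold change of all genes to 0.11 in lung, -0.12 between organs in WT and 0.19 for the difference. Of 36 values not called, 21 changed sign under some alternative, and 0 of these passed the threshold there. The causes were not tested.

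With the replicate number as a block, 23, 25, 20, 24 and 26 genes were called, against 55.4, 57, 56.6, 65.1 and 61.6% of all genes. The block ended only the call of *Pfkfb3* in lung, at 0.40 (adjusted p = 0.0544). The labels share only a number: deviations of same-numbered libraries correlated at -0.0139 in lung, 0.169 in spleen, 0.00447 in WT and -0.0758 in KO across genes. Counts set the limit for genes of a few reads, since 3 reads were worth up to 0.979 CPM.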
